A study of Mus musculus with 24 samples.

Results

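Cells that divide switch on a common set of genes that open the cycle, copy the DNA and pull the copies apart. The 40 genes described here are such cell cycle and DNA replication genes, picked by symbol, and all 40 were found among the 32728 mouse genes listed in the deposited tables. They were followed in RNA-seq libraries of cultures labelled astrocytes and, beside them, of cultures labelled neurons. All cultures came from PerkloxP/loxP mice and all were transduced with a lentivirus. Cultures called WT received inactive ΔCre and kept both floxed Perk alleles, while cultures called Perk KO received active Cre, which removes the floxed part of Perk. The labels do not give the age of the animals, the promoter that drives Cre, the share of cells transduced or the number of animals pooled in a culture. Tunicamycin (TM) blocks the attachment of N-linked sugars to new proteins and so causes stress in the endoplasmic reticulum (ER). Cultures 14 days in vitro were exposed to 5 µg/mL of it for 24 hours, a time the design text gives as 20 to 24 hours, and control cultures received DMSO. Each of the 8 groups (2 cell types, 2 genotypes, control or TM) had 3 libraries.

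D-type cyclins bind Cdk4 and Cdk6 and start the inactivation of the retinoblastoma protein, which frees E2F factors to switch on cyclin E, Cdk2 and the replication genes. Cdc6 and Cdt1 then load the Mcm2 to Mcm7 helicase on replication origins, ribonucleotide reductase supplies deoxynucleotides and PCNA clamps the polymerase to DNA, before cyclin A, cyclin B, Cdk1, Plk1 and the Aurora kinases drive mitosis. The inhibitors Cdkn1a (p21) and Cdkn1b (p27) hold the cyclin-dependent kinases back. Perk is the ER kinase that phosphorylates eIF2α and slows translation under ER stress, and loss of cyclin D1 protein through it is a known response in dividing cells. Mature neurons have left the cycle, whereas cultured astrocytes and glial progenitors can divide, and only RNA was measured here.

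Many cell cycle genes are known for short promoter elements through which the cycle's own factors act, and 5 promoters that hold such elements are shown to let a reader see how the mitotic members differ from the helicase members. The sequences are the 180 bases upstream of the start site, 5′ to 3′, from RefSeq (GRCm38.p6). Ccnb2 lies at chr9:70421555-70421734 (minus strand), Cdk1 at chr10:69352913-69353092 (minus), Cdc20 at chr4:118437344-118437523 (minus), Mcm5 at chr8:75109329-75109508 (plus) and Mcm6 at chr1:128359706-128359885 (minus). Capitals mark 3 kinds of element searched on both strands: the CHR element TTTGAA, the CCAAT box (ATTGG when read from the other strand), and the E2F element as TTTCCCGC, TTTCGCGC, TTTGCCGC or TTTGGCGC (GCGCGAAA or GCGCCAAA on the other strand).
Ccnb2: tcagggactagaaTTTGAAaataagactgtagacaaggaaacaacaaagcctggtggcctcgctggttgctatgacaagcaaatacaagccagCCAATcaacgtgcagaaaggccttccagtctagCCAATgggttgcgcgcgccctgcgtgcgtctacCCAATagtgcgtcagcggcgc
Cdk1: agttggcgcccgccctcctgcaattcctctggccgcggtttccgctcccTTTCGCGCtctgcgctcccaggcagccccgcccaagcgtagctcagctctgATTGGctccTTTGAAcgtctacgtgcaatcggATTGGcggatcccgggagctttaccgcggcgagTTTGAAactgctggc
Cdc20: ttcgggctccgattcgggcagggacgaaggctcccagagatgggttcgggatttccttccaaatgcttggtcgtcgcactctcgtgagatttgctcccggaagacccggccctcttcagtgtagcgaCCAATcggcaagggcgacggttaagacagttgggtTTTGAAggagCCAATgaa
Mcm5: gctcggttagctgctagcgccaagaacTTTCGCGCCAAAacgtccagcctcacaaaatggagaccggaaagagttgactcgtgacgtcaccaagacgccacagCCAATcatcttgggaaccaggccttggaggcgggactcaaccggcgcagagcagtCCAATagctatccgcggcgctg
Mcm6: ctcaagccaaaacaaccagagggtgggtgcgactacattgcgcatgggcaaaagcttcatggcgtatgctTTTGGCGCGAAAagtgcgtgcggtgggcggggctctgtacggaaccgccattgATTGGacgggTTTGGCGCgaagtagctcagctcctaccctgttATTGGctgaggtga

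Ccnb2, Cdk1 and Cdc20 held CCAAT boxes and at least 1 CHR element, and Cdk1 held an E2F element too. Mcm5 and Mcm6 held CCAAT boxes too, with E2F elements and no CHR element. In both, an E2F match on one strand overlapped a match on the other, so that 1 long capital run holds both. A RefSeq promoter of 300 bases (250 before and 50 after the start) was found for 33 of the 40 members, and Ccnd1, Ccnd2, Ccne2, Mcm4, Ccna2, Foxm1 and Aurkb had none. CHR letters stood in 10 of the 14 mitotic members with a promoter, against 17.89% of all 32851 promoters of the same length. They stood in 1 of 7 licensing members, the helicase gene Mcm2, which held no E2F letters. CCAAT boxes stood in 13 of the 14 mitotic members, against 37.41% of all promoters. They were also common outside mitosis, in 5 of 7 licensing members and 3 of 4 DNA synthesis members. E2F letters stood in 6 of 7 licensing members and in 1 of the 14 mitotic members, against 2.265% of all promoters. These are matches of letters in a window and not measured binding sites.

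The libraries held 16.03 M to 25.9 M counts each. Levels are given in CPM, a gene's counts divided by the library's total in M, scaled by TMM within the 12 libraries of a cell type, so levels are not compared between astrocytes and neurons. Differences are log2 fold changes ± standard error from edgeR's quasi-likelihood test on 3 libraries against 3, and a gene was called at a Benjamini-Hochberg adjusted p under 0.05 over all genes tested. Eif2ak3, which encodes Perk, stood at 25.2 to 28.1 CPM in WT control astrocytes and at 5.96 to 7.70 CPM in Perk KO control astrocytes, and rose with TM in both (74.3 to 105 and 11.4 to 15.8 CPM), counting reads over the whole gene and not the floxed part alone. The labels name biological replicates but not what separates them (a culture, a litter or an animal), so the spread behind each p-value may be technical. In bulk RNA, fewer cells of a type and less RNA per cell cannot be told apart. The comparisons of one cell type share libraries, so their results are not independent of each other. The kit is not described as stranded, and 9 members overlap another protein-coding gene, from whose reads theirs cannot be told apart.

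In WT astrocytes, the RNA of most of these genes was lower with TM. Of the 40 members, 25 were lower and 4 higher (62.5% and 10%), where 27.7% and 25.0% of all genes tested were called lower and higher. The median log2 difference was -0.765 over the members and -0.010 over all genes. The genes that fell were the D-type cyclins and Cdk6, some of the helicase genes, both subunits of ribonucleotide reductase and 14 of the 17 mitotic genes. Cdk4, Cdk2, Mcm7 and Pcna rose, and the inhibitors Cdkn1a and Cdkn1b were not called.

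Of the 5 genes that open the cycle, the D-type cyclins and their kinases, 4 fell and 1 rose. Ccnd1 (cyclin D1, chr7:144929931-144939925, minus strand) stood at 1638, 2189 and 1998 CPM in control and at 742, 900 and 914 CPM with TM. The TM libraries all lay below every control library, and the difference was -1.21 ± 0.145 (2.31-fold lower, adjusted p = 0.000396). Ccnd3 (cyclin D3, chr17:47505051-47599691, plus strand) had the smallest p of all members.
Its level went from 91.35, 97.7 and 94.9 CPM in control to 27.0, 27.2 and 31.7 CPM with TM, a difference of -1.74 ± 0.10 (3.35-fold lower, adjusted p = 2.5e-05). The TM libraries sat close together, at less than the lowest control library. Cdk6, a partner kinase of the D-type cyclins, stood at 121, 135 and 115 CPM in control and at 79.5, 89.3 and 70.7 CPM with TM (-0.65 ± 0.12, adjusted p = 0.00286), with no overlap. Ccnd2 (cyclin D2) fell from 949 to 1281 CPM to 609 to 740 CPM (-0.74 ± 0.14, adjusted p = 0.00324). Cdk4, the other partner kinase, rose slightly, from 125 to 146 CPM to 160 to 199 CPM (0.38 ± 0.13, adjusted p = 0.0361). Cdk4 overlaps Tspan31 on the opposite strand, and Tspan31 itself differed by 0.68 ± 0.11, so the share of each gene in that rise cannot be told apart. Tspan31 also rose with TM in Perk KO astrocytes (0.76 ± 0.11) and in WT and Perk KO neurons (0.73 and 0.79), where Cdk4 was not called. Bysl, which overlaps Ccnd3, moved the other way from it (0.77 ± 0.11), and Oraov1, which overlaps Ccnd1, averaged 25.5 CPM with TM against 31.5 in control.

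Among the next genes in the cycle the picture was mixed. E2f1, the factor that switches on replication genes, stood at 19.1, 20.1 and 19.6 CPM in control and at 17.2, 14.5 and 13.8 CPM with TM. Its libraries did not overlap and it was called lower (-0.39 ± 0.14, adjusted p = 0.0429), but with a correction for GC content it was not (-0.20, adjusted p = 0.2835). Cdk2, the kinase of the G1 to S transition, rose instead, from 11.1, 12.5 and 12.04 CPM to 18.5, 16.97 and 17.8 CPM (0.56 ± 0.13, adjusted p = 0.00731), and Pmel, which overlaps it, was near 1 CPM in both groups (0.924 and 0.999 CPM on average). Its cyclin, Ccne1, was low and scattered, at 3.44, 4.39 and 5.75 CPM in control and 3.22, 5.07 and 3.50 CPM with TM (-0.22 ± 0.28, adjusted p = 0.531). Ccne2 likewise did not pass (-0.015 ± 0.25).

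The inhibitors differed by less than the spread between libraries. Cdkn1a (p21, chr17:29090979-29100722, plus strand) stood at 806, 1069 and 1155 CPM in control and at 842, 1097 and 1170 CPM with TM, a difference of 0.018 ± 0.17 (adjusted p = 0.937). The groups overlapped over nearly their whole range. Cdkn1b (p27) stood at 111, 105.5 and 101 CPM in control and at 127.5, 113.5 and 99.5 CPM with TM (0.08 ± 0.12, adjusted p = 0.583). Per kilobase of gene length, Cdkn1a was the highest of the 40 members in WT control astrocytes at 454 CPM per kb, followed by Ccnd1 at 412 and Ccnd2 at 117, and Kif11 was the lowest at 0.252.

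The licensing genes, which load the helicase on origins, split. Of 8 tested, 4 fell and 1 rose. Mcm5, a helicase subunit whose promoter is shown above, went from 17.6, 16.1 and 13.1 CPM to 6.50, 5.68 and 6.45 CPM (-1.35 ± 0.175, 2.55-fold lower, adjusted p = 0.000554). Mcm6, also shown above, went from 45.6, 41.6 and 40.65 CPM to 25.8, 20.5 and 21.1 CPM (-0.94 ± 0.13, adjusted p = 0.000726). Mcm4 went from 45.4, 37.1 and 35.4 CPM to 25.8, 21.55 and 23.4 CPM (-0.76 ± 0.14, adjusted p = 0.00292). None of these 3 subunits had a TM library within the range of its controls. Mcm3 fell by 0.36 with an adjusted p of 0.0461 that DESeq2 put at 0.05679. Mcm7 rose, from 62.3, 62.3 and 73.7 CPM to 84.7, 94.1 and 93.35 CPM (0.44 ± 0.11, adjusted p = 0.0101), although it belongs to the same ring-shaped helicase. Its overlapping neighbours Cops6 and Ap4m1 were not called (-0.13 and -0.20). Mcm2 (0.05), Cdc6 (0.04) and Cdt1 (0.46, adjusted p = 0.141) did not pass, though Cdt1 did in a fit with the replicate number as a block (0.46, adjusted p = 0.04168).

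The genes of DNA synthesis split in the same way. Rrm2, the S-phase subunit of ribonucleotide reductase, stood at 30.4, 25.2 and 20.6 CPM in control and at 11.04, 10.8 and 9.89 CPM with TM (-1.29 ± 0.17, adjusted p = 0.000654). Rrm1, the large subunit, stood at 60.6, 55.2 and 46.7 CPM and then at 35.5, 31.6 and 29.4 CPM (-0.77 ± 0.14, adjusted p = 0.00234). Both were lower in every TM library than in any control library. Pcna (chr2:132249162-132253314, minus strand), the sliding clamp, rose from 109, 103 and 109 CPM to 144.5, 144 and 141 CPM (0.40 ± 0.09, adjusted p = 0.00726), also without overlap. Tyms, which makes thymidylate, did not pass (0.145 ± 0.15).

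**Figure D1:**
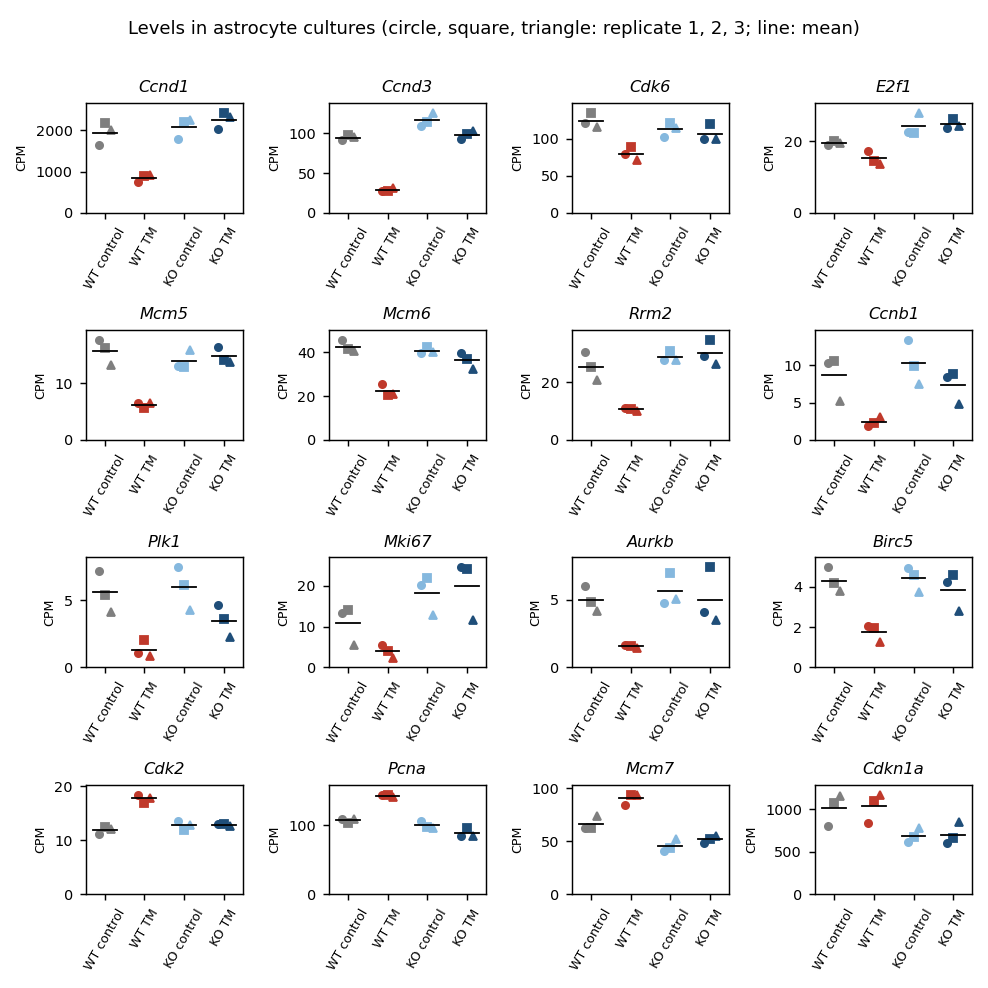
Levels of 16 of the 40 genes in the 12 astrocyte libraries, in CPM on linear axes that start at 0. The columns of each panel are WT control, WT with TM, Perk KO control and Perk KO with TM, each marker is 1 library (circle, square and triangle for replicates 1, 2 and 3) and the bar is the mean of 3. Ccnd1 is at 742 to 914 CPM in WT with TM and at 1638 CPM or more in every other library, while Pcna, Cdk2 and Mcm7 are highest in WT with TM.

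The mitotic genes fell furthest. All 17 had a difference below 0 and 14 were called, with a median of -1.317. Plk1, the kinase of mitotic entry, went from 7.21, 5.43 and 4.16 CPM to 1.09, 2.08 and 0.807 CPM (-2.11 ± 0.40, 4.31-fold lower, adjusted p = 0.00311). Ccnb2 (cyclin B2) went from 3.82, 3.35 and 3.84 CPM to 1.03, 1.099 and 0.699 CPM (-1.98 ± 0.29, 3.93-fold lower, adjusted p = 0.000969). Ccnb1 (cyclin B1) went from 10.3, 10.5 and 5.22 CPM to 1.898, 2.32 and 3.06 CPM (-1.86 ± 0.33, adjusted p = 0.00246). All 9 TM values lay under the controls of the same gene, and all 3 transcripts were rare.
Mki67 (Ki-67, the common marker of cycling cells, chr7:135689784-135716361, minus strand) stood at 13.3, 14.1 and 5.54 CPM in control and at 5.46, 3.97 and 2.26 CPM with TM (-1.51 ± 0.43, 2.85-fold lower, adjusted p = 0.0189). The gap between its groups was narrow, since replicate 3 of the controls was almost as low as replicate 1 with TM. Ccna2 (cyclin A2) differed by -1.64 ± 0.35, Top2a (which untangles DNA) by -1.12 ± 0.25 and Cdk1 (the mitotic kinase) by -0.80 ± 0.185. Foxm1, a factor that switches on mitotic genes, and Aurka, a spindle pole kinase, did not pass (-0.52 and -0.745, adjusted p = 0.0676 and 0.0963) unless the replicate number was a block (adjusted p = 0.03228 and 0.03733).

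At the spindle and the kinetochore, 7 of 8 genes fell. Aurkb, the kinase of the chromosomal passenger complex, went from 6.02, 4.83 and 4.16 CPM to 1.67, 1.59 and 1.40 CPM (-1.71 ± 0.26, 3.27-fold lower, adjusted p = 0.00113). Birc5 (survivin), its partner, went from 4.97, 4.17 and 3.78 CPM to 2.07, 1.95 and 1.24 CPM (-1.32 ± 0.29, adjusted p = 0.00619). Bub1b, a spindle checkpoint kinase, went from 7.597, 7.63 and 4.69 CPM to 3.16, 3.66 and 2.21 CPM (-1.16 ± 0.29, adjusted p = 0.0116). None of these 3 overlapped between groups. Bub1, Cenpe, Cenpf and Cdc20 were called at -0.91, -1.07, -1.47 and -0.55, and Cenpf was the 1 called gene of the 25 whose libraries overlapped. Kif11, a spindle motor at 0.161 to 0.671 CPM with TM, did not pass (-1.67 ± 0.70, adjusted p = 0.0779). Groups whose 3 libraries all lay to one side were common in this comparison, at 31.3% below and 31.0% above over all genes, and 25 members lay wholly below and 4 wholly above. Such shares were counted over all genes for this comparison alone, so non-overlap in the other comparisons has no background beside it. Leaving out 1 library at a time left 18 to 25 members lower and 3 to 4 higher, and 18 of the 25 and 3 of the 4 kept their call in each of those 6 fits. The calls lost in at least 1 fit were those of E2f1, Mcm3, Mki67, Bub1, Cenpe, Cenpf, Cdc20 and Cdk4.

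In Perk KO astrocytes no member passed the test for a TM response. edgeR called 0 of the 40, with 2 at an unadjusted p under 0.05, and DESeq2 called 0, where edgeR called 5.55% of all genes higher and 4.60% lower. The median log2 difference was -0.119 over the members and -0.004 over all genes. Fewer genes of any kind were called in this comparison than in WT, so the low count of members is read beside that background.
Ccnd1 stood at 1796, 2194 and 2260 CPM in control and at 2036, 2424 and 2327 CPM with TM, and the groups overlapped (0.12 ± 0.12, adjusted p = 0.624). Mki67 stood at 20.1, 21.9 and 12.8 CPM and then at 24.6, 24.1 and 11.6 CPM, and Rrm2 at 27.8, 30.6 and 27.55 CPM and then at 29.1, 34.6 and 26.1 CPM. Neither differed beyond the spread between libraries (0.13 ± 0.29 and 0.06 ± 0.13). Mcm5 stood at 13.01, 12.8 and 15.8 CPM in control and at 16.3, 14.1 and 13.7 CPM with TM, again with overlap.
The same-numbered astrocyte libraries deviated together, and with the replicate number as a block 5 members were called lower in Perk KO astrocytes. These were Ccnd3 (-0.25, adjusted p = 0.007835), Plk1 (-0.79, adjusted p = 0.005741), Ccnb1 (-0.50, adjusted p = 0.02498), Top2a (-0.30, adjusted p = 0.0233) and Mcm4 (-0.23, adjusted p = 0.04183). The fit without the block gave the same 5 genes -0.25, -0.78, -0.49, -0.27 and -0.225, with adjusted p from 0.133 to 0.537. With the block, 2190 genes of all those tested were called higher and 2098 lower, against 841 and 698 without it.

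Whether the response to TM differed between the genotypes was tested directly, as an interaction over all 12 astrocyte libraries. The response of Perk KO minus that of WT was above 0 for 15 members and below 0 for 2 (37.5% and 5%), where 19.8% and 14.6% of all genes tested were called. Every D-type cyclin and Cdk6 was among the 15. Ccnd3 differed by 1.48 ± 0.13 (adjusted p = 1.06e-05) and Ccnd1 by 1.31 ± 0.20 (adjusted p = 0.000387), with Ccnd2 at 0.66 and Cdk6 at 0.54. Of the replication genes, Mcm5 differed by 1.41 ± 0.21 (adjusted p = 0.000397), Rrm2 by 1.33 ± 0.21 (adjusted p = 0.000561), Mcm6 by 0.76, Rrm1 by 0.61 and Mcm3 by 0.475. Of the mitotic genes, Mki67 (1.63 ± 0.565, adjusted p = 0.041), Ccnb2 (1.56 ± 0.42, adjusted p = 0.0131), Aurkb (1.52 ± 0.41, adjusted p = 0.0139), Ccnb1 (1.35), Ccna2 (1.34) and Birc5 (1.11) were called. The 2 genes below 0 were Pcna (-0.59 ± 0.11, adjusted p = 0.00193) and Cdk2 (-0.57 ± 0.155, adjusted p = 0.014), both called higher with TM in WT and not called in Perk KO.
With the replicate number as a block, 22 members were above 0 and 4 below. Mcm4, Cdk1, Plk1, Top2a, Bub1, Bub1b and Cenpf joined the first set (adjusted p from 0.0002916 to 0.03455), and Cdk4 (-0.355, adjusted p = 0.01138) and Mcm7 (-0.28, adjusted p = 0.04255) joined the second. Leaving out 1 library at a time without the block gave 9 to 19 members above 0 and 2 to 3 below. Ccnd1, Ccnd2, Ccnd3, Mcm5, Mcm6, Rrm2, Aurkb and Ccnb2, with Pcna and Cdk2 on the other side, kept their call in each of these 12 fits. The count above 0 was 9 without WT control replicate 1 or 2, WT TM replicate 3, Perk KO control replicate 2, or Perk KO TM replicate 1 or 2.

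**Figure D2:**
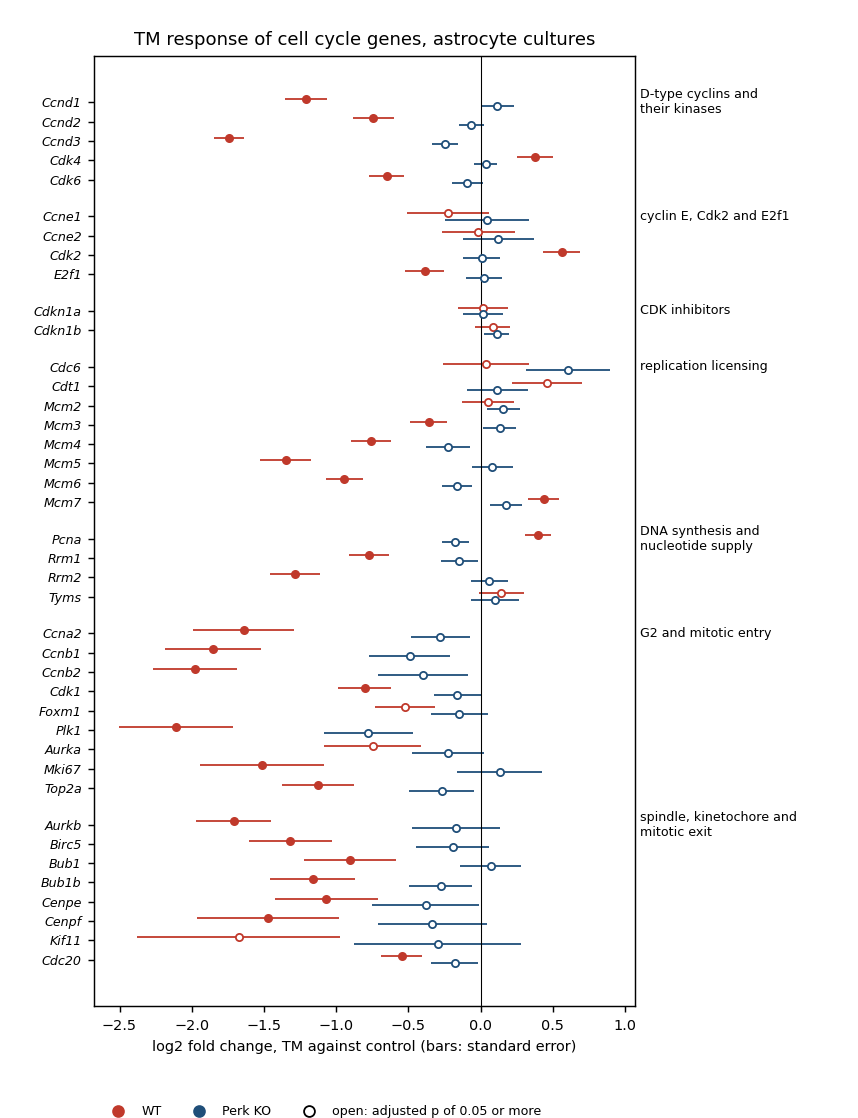
Log2 difference of TM against control for the 40 genes in astrocyte cultures, by role, with WT in red and Perk KO in blue. Points are edgeR estimates from 3 libraries against 3, bars are 1 standard error and open points have an adjusted p of 0.05 or more. The red points of most mitotic genes lie left of -0.5, and the blue points are all open, among them Plk1 at -0.78.

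Before any stress, few of these genes were called between the genotypes. In control astrocytes 1 member was higher in Perk KO than in WT and 2 were lower (2.5% and 5%), where 4.71% and 10.2% of all genes were called (716 and 1544 genes, but 3 and 47 without WT control replicate 2). Cenpf, a kinetochore protein, was higher, at 15.8, 12.8 and 7.09 CPM in Perk KO against 3.92, 6.20 and 1.86 CPM in WT (1.57 ± 0.425, adjusted p = 0.0427). Cdkn1a was lower, at 619, 670 and 782 CPM against 806, 1069 and 1155 CPM (-0.55 ± 0.16, adjusted p = 0.0489), and so was Mcm7, at 41.1, 44.1 and 52.35 CPM against 62.3, 62.3 and 73.7 CPM (-0.53 ± 0.12, adjusted p = 0.0288). None of these 3 overlapped between the genotypes, a trait not counted over all genes here. Each call was lost when a single library was left out: no member was called without WT control replicate 2 or 3 or Perk KO control replicate 1 or 2.
With the replicate number as a block, 4 members were higher, the added genes being Ccnd3 (0.30, adjusted p = 0.01183), Mki67 (0.785, adjusted p = 0.002218) and Cenpe (0.49, adjusted p = 0.04298). Mki67 stood at 20.1, 21.9 and 12.8 CPM in Perk KO controls and at 13.3, 14.1 and 5.54 CPM in WT controls, with replicate 3 lowest in both.

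Under TM the genotypes stood far apart. In astrocytes exposed to TM, 25 members were higher in Perk KO than in WT and 6 were lower (62.5% and 15%), where 32.1% and 31.2% of all genes were called. The median was 0.758 over the members and 0.013 over all genes. The TM libraries of WT also enter the response described above, so these counts are no separate evidence of it. Mki67 stood at 24.6, 24.1 and 11.6 CPM in Perk KO against 5.46, 3.97 and 2.26 CPM in WT (2.39 ± 0.375, 5.26-fold higher, adjusted p = 0.000651). Ccnd3 was higher by 1.80 ± 0.11 (adjusted p = 7.4e-06) and Ccnd1 by 1.43 ± 0.13 (adjusted p = 4.01e-05), and Cenpf, already higher in control, by 2.72 ± 0.44. Every library of Perk KO lay above every library of WT for these 4 genes, a trait not counted over all genes in this comparison. The 6 lower genes were Mcm7 (-0.78 ± 0.10), Pcna (-0.67 ± 0.10), Cdkn1a (-0.54 ± 0.17), Cdk2 (-0.44 ± 0.125), Tyms (-0.39 ± 0.14) and Cdk4 (-0.355 ± 0.11). Cdkn1a and Mcm7 were lower in Perk KO in control cultures too, and the Cdkn1a libraries overlapped under TM (598, 662 and 845 CPM against 842, 1097 and 1170 CPM). The call of Tyms was lost under GC correction (-0.29, adjusted p = 0.0842), with no filter on low counts (adjusted p = 0.0622) and in 5 of the 6 fits that left out 1 library. Leaving out 1 library gave 19 to 26 members higher and 3 to 6 lower, with 3 lower without Perk KO TM replicate 2. Of the 25 and the 6, 18 and 3 kept their call in each of these 6 fits. Cdkn1a kept its call in 2 of them and Cdk4 in 4. With the replicate number as a block, the licensing factors Cdc6 (0.74, adjusted p = 0.03522) and Cdt1 (-0.55, adjusted p = 0.01401) were called too.

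Other genes of the same processes were taken from 6 further lists. In WT astrocytes 27.7% of all genes tested were called lower with TM and 25.0% higher. The counts of each list are read beside these shares. Of 42 other mitotic genes tested in WT astrocytes, 30 fell and 2 rose with TM (median -1.017). Pttg1 (securin, -0.995 ± 0.11) and Ckap2 (a spindle protein, -0.93 ± 0.12) had the smallest p among them. In Perk KO astrocytes 0 of the 42 were called by edgeR, and Pttg1 and Ckap2 stood at -0.10 and -0.375 there. All 5 of the other CDK inhibitors fell in WT (median -1.239), which includes Cdkn1c (p57), from 21.8, 15.1 and 10.98 CPM to 2.19, 3.42 and 2.10 CPM (-2.66 ± 0.32), and Cdkn2c (p18, -1.39 ± 0.23). Both also fell in Perk KO, by 0.95 and 0.47 on the log2 scale, and the interaction was called for each (1.70 and 0.91, adjusted p = 0.00441 and 0.0145).
Of 46 other replication fork and origin genes, 18 fell and 11 rose in WT (median -0.241). Lig1, the ligase that joins Okazaki fragments, fell from 22.5, 19.9 and 17.6 CPM to 8.46, 7.20 and 8.23 CPM (-1.35 ± 0.16), and Orc2, an origin recognition subunit, rose from 54.2, 71.5 and 61.8 CPM to 175, 178 and 172 CPM (1.47 ± 0.12). In Perk KO neither passed (0.03 and 0.29). Of 17 pocket proteins, E2F factors and G1 regulators, 6 rose and 6 fell (median 0.041). E2f8, a repressor of the E2F family, fell from 3.15, 3.57 and 2.66 CPM to 0.690, 0.366 and 0.215 CPM (-2.89 ± 0.43) and stood at 0.08 ± 0.33 in Perk KO. Cks1b, a small partner of the cyclin-dependent kinases, rose in both genotypes (1.42 ± 0.13 and 0.91 ± 0.11), more in WT (interaction -0.52 ± 0.16, adjusted p = 0.0236).
The kinases that restrain Cdk1 moved apart. Wee1 fell in WT, from 40.2, 44.4 and 39.9 CPM to 19.55, 19.1 and 17.7 CPM (-1.16 ± 0.11), and Pkmyt1 (Myt1) rose, from 1.91, 2.20 and 2.82 CPM to 12.6, 9.77 and 8.71 CPM (2.15 ± 0.245). On the list of 13 checkpoint and homologous recombination genes that holds them, 4 rose and 5 fell (median 0.409). Of 16 p53 targets beside Cdkn1a, 2 rose and 5 fell in WT astrocytes (median -0.088). Sesn1, a p53 target, fell in WT from 95.03, 78.3 and 68.4 CPM to 26.7, 19.5 and 16.99 CPM. In Perk KO it went from 122, 108 and 111 CPM to 182, 162 and 163 CPM. Its responses in the genotypes differed in the interaction test (2.51 ± 0.22, adjusted p = 1.06e-05), which tests their difference and not their direction. Trp53inp1, another p53 target, fell in WT (-0.775 ± 0.12) and was not called in Perk KO (0.07 ± 0.14).

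**Figure D3:**
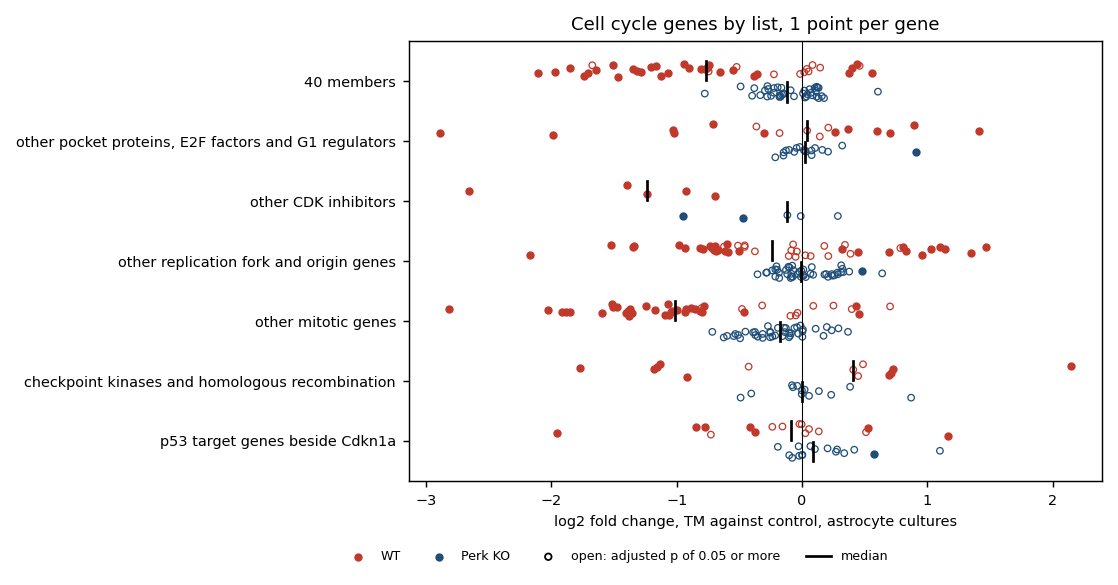
Log2 difference of TM against control in WT and Perk KO astrocytes for the 40 members and 6 lists of other genes, 1 point per gene tested, with the median of each list as a bar. In WT the medians of the 40 members, the other mitotic genes and the other CDK inhibitors are at -0.765, -1.017 and -1.239, and in Perk KO every median lies within 0.2 of 0.

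Markers of several cell types moved with the TM response, and their part in the fall of the cycle genes was not tested. In WT astrocyte cultures the summed level of 14 astrocyte markers went from 2993 to 4267 CPM in control to 774 to 857 CPM with TM, and 11 of the 13 markers tested were lower. In Perk KO the same sum went from 4109 to 5250 CPM to 2879 to 3430 CPM, with 5 lower and 1 higher. Of all genes tested, 27.7% were called lower with TM in WT astrocytes, and 4.60% lower and 5.55% higher in Perk KO. The sum of 12 oligodendrocyte lineage markers went from 402 to 424 CPM to 102 to 106 CPM in WT and from 474 to 556 CPM to 480 to 556 CPM in Perk KO. The 7 neural progenitor markers summed to 8631 to 9651 CPM and then to 4287 to 5330 CPM in WT, and the 10 fibroblast and mural markers to 1356 to 1529 CPM and then to 379 to 495 CPM. In Perk KO the progenitor sum averaged 9878 CPM in control and 7529 CPM with TM, and the fibroblast and mural sum went from 1292 to 1939 CPM to 643 to 876 CPM. Microglial markers ranged widely between libraries of a group, from 38.3 to 196 CPM in WT control and from 7.45 to 49.5 CPM with TM, against 20.4 to 169 CPM and 16.6 to 41.3 CPM in Perk KO. The 15 neuron markers summed to 365 to 394 CPM in WT control and 262 to 367 CPM with TM, and the 5 endothelial markers to 18.01 to 30.1 CPM and 10 to 12.8 CPM. Gjb6 was at 0 in all WT astrocyte libraries, and Sox10 and Mag were at 0 in the 3 WT TM libraries. The summed level of the 17 mitotic members was 178, 161 and 114 CPM in WT control, 78.7, 73.98 and 58.8 CPM in WT with TM, 199, 194 and 144.5 CPM in Perk KO control and 169, 180 and 112 CPM in Perk KO with TM. Replicate 3 was lowest in each of the 4 groups, and only WT with TM lay below all other libraries.

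**Figure D4:**
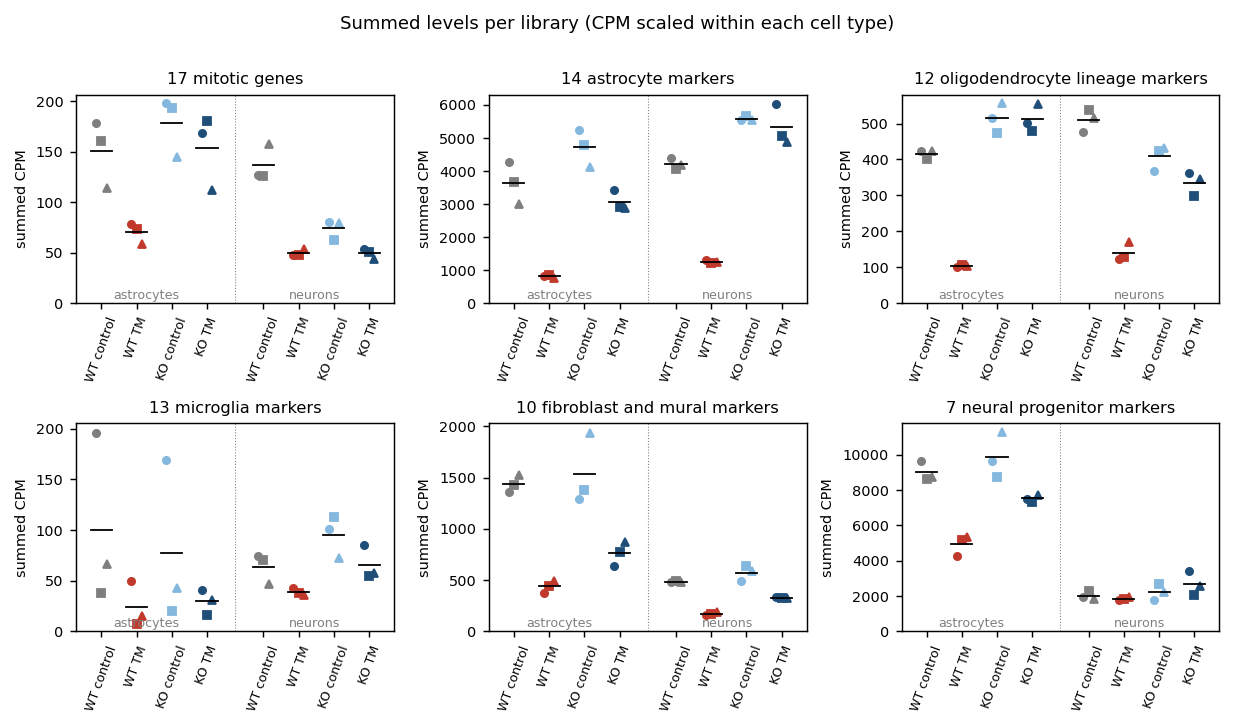
Summed level per library, in CPM, of the 17 mitotic members and of marker lists of 5 cell types in astrocyte and neuron cultures, each marker 1 library. In astrocytes the mitotic sum is 58.8 to 78.7 CPM in WT with TM and 112 to 199 CPM in the other groups, and the astrocyte and oligodendrocyte marker sums of WT also stand lowest with TM.

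Cultures labelled neurons held RNA of the same genes. In their WT controls the astrocyte markers summed to 4212 CPM on average, beside 8885 CPM for the neuron markers. Which cells of these cultures carried the RNA of the members was not tested. In WT neurons 26 of 39 members tested fell with TM and 4 rose (66.7% and 10.3%), where 24.8% and 27.0% of all genes were called lower and higher. The median was -1.106 over the members and 0.039 over all genes. The mitotic genes fell again, 15 of the 16 tested, and Cdkn1a, Cdkn1b, Cdt1 and Mcm7 rose. Kif11 had too few counts to be tested.
Ccna2 (chr3:36564865-36572150, minus strand) stood at 8.88, 9.56 and 9.58 CPM in control and at 1.41, 1.32 and 1.55 CPM with TM (-2.74 ± 0.18, 6.67-fold lower, adjusted p = 6.84e-06). Ccnb1 stood at 10.8, 12.2 and 14.4 CPM and then at 2.20, 2.19 and 2.77 CPM (-2.41 ± 0.19, adjusted p = 1.98e-05), and Mki67 at 5.37, 4.86 and 12.98 CPM and then at 1.30, 0.823 and 0.800 CPM (-3.01 ± 0.44, 8.03-fold lower, adjusted p = 0.000586). The groups did not overlap for any of the 3, and for Mki67 control replicate 3 stood far above the other controls. Ccnd1 fell from 651, 804 and 657 CPM to 288, 309 and 358 CPM (-1.18 ± 0.12) and Ccnd3 from 47.8, 53.5 and 41.6 CPM to 17.85, 22.2 and 20.8 CPM (-1.27 ± 0.14). Cdk6 and Cdk4 did not pass (-0.18 and -0.06).
Cdkn1b (chr6:134920401-134925513, plus strand), which holds postmitotic cells out of the cycle, rose from 82.9, 80.8 and 87.2 CPM to 186, 186 and 181 CPM (1.11 ± 0.07, 2.15-fold higher, adjusted p = 6.87e-06). Cdkn1a rose from 206, 191 and 173 CPM to 354, 365 and 358 CPM (0.88 ± 0.09, adjusted p = 5.76e-05), and Cdt1 from 3.96, 3.92 and 3.34 CPM to 11.3, 11.8 and 11.3 CPM (1.58 ± 0.15, adjusted p = 5.88e-05). The TM libraries of these 3 genes sat close together and far above the controls. Mcm7 rose from 25.4, 30.5 and 26.8 CPM to 63.1, 62.95 and 58.4 CPM (1.12 ± 0.10), as Mcm5 fell from 14.1, 20.2 and 15.0 CPM to 4.92, 5.82 and 6.08 CPM (-1.58 ± 0.185). Of the neighbours that overlap Mcm7, Ap4m1 was called higher here too (0.39 ± 0.13, adjusted p = 0.0294). It averaged 14.24 CPM with TM and 10.58 CPM in control. Cops6 was not called (-0.32 ± 0.14), and the share of each gene in the Mcm7 rise was not tested. Bub1b was the 1 mitotic gene with a difference above 0, and it did not pass (0.44 ± 0.18, adjusted p = 0.074).

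In Perk KO neurons TM moved fewer members. Of 40 tested, 8 fell and 3 rose (20% and 7.5%), where 10.8% and 13.1% of all genes were called. Cdkn1a rose from 203, 226 and 207 CPM to 445, 359 and 453 CPM (0.98 ± 0.12, adjusted p = 0.00139), Mcm7 from 21.05, 22.9 and 22.9 CPM to 39.1, 36.7 and 35.1 CPM (0.73 ± 0.11, adjusted p = 0.00286), and Cdkn1b from 89.2, 81.9 and 91.25 CPM to 108, 124 and 120 CPM (0.42 ± 0.095, adjusted p = 0.0161). All 3 were free of overlap, which was not counted over all genes here. The genes that fell were Ccnd2 (-0.48), Cdk6 (-0.54), Ccne1 (-0.52), Mcm2 (-0.64), Mcm3 (-1.39), Mcm5 (-1.12), Mcm6 (-0.75) and Top2a (-1.15). Of these 8, as called by edgeR, 4 were helicase subunits and 1 was mitotic. Only 2 of the 8, Mcm5 and Top2a, kept their call in each of the 6 fits that left out 1 library. DESeq2 also called the mitotic genes Mki67 (-1.21, adjusted p = 0.02003) and Ccna2 (-0.76, adjusted p = 0.03834) lower. In edgeR these had similar differences (-1.20 and -0.745) and did not pass (adjusted p = 0.07267 and 0.05722). The call of Cdkn1b was kept in 2 of the 6 fits that left out 1 library, and lost without any 1 Perk KO control library or Perk KO TM replicate 3. Without single libraries the number that fell was 3 to 11, and it was 3, 4, 3 and 5 without Perk KO control replicates 1, 2 and 3 and Perk KO TM replicate 3.
Already without TM, 17 of 39 members were lower in Perk KO neurons than in WT neurons and 1 was higher (43.6% and 2.56%), where 9.16% and 12.2% of all genes were called. Of the 17, 11 were mitotic genes, such as Cdc20, an activator of the anaphase-promoting complex (4.68, 3.57 and 4.97 CPM against 13.1, 13.4 and 9.96 CPM, -1.47 ± 0.19), and Bub1b (2.92, 3.85 and 4.80 CPM against 8.43, 9.86 and 8.63 CPM, -1.23 ± 0.21). Single libraries moved the number lower to between 7 and 19, with 7 in the absence of Perk KO control replicate 3 and 11 in the absence of replicate 2, and 7 genes (Cdc20, Cdk1, Rrm2, Aurkb, Plk1, Bub1b and Mcm3) kept their call in each of those fits. Ccne2 was the gene that was higher (1.37 ± 0.31, adjusted p = 0.0201), and it was not called with a correction for GC content (0.54, adjusted p = 0.1699) or without WT control replicate 1 or any 1 of the Perk KO controls. Ints8, which overlaps Ccne2 on the opposite strand, was higher too (0.94 ± 0.165, adjusted p = 0.0108). Ints8 averaged 33.7 CPM in Perk KO and 17.55 CPM in WT, and Ccne2 6.17 and 2.385 CPM. The share of each gene in the higher Ccne2 level cannot be told apart. In the same comparison 6 of 12 oligodendrocyte lineage markers were lower and 1 higher, 8 of 15 neuron markers lower and 1 higher, and 6 of 13 astrocyte markers higher, and the part of these in the result was not tested.

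The interaction in neurons was above 0 for 12 members and below 0 for 4 of 39 (30.8% and 10.3%), where 14.5% and 15.4% of all genes were called. Ccnb2 (2.19 ± 0.56), Ccnb1 (2.17 ± 0.47), Aurkb (2.04 ± 0.41), Ccna2 (1.96 ± 0.27), Ccnd3 (1.23 ± 0.22) and Ccnd1 (0.70 ± 0.23) were among the first set, and Cdt1 (-1.26 ± 0.22), Mcm2 (-0.84 ± 0.24), Cdkn1b (-0.72 ± 0.11) and Mcm7 (-0.43 ± 0.13) formed the second. Ccna2 stood at 5.49, 3.79 and 3.71 CPM in Perk KO control and at 2.79, 2.61 and 2.35 CPM with TM. It was thus lower than in WT before TM (-1.11 ± 0.19) and higher than in WT with TM (0.92 ± 0.26, adjusted p = 0.0225), so its interaction came from both ends. Cdc20 averaged 12.2 CPM in WT control and 5.45 CPM with TM, against 4.40 and 4.35 CPM in Perk KO. Foxm1 averaged 7.64 and 3.24 CPM against 3.04 and 3.37 CPM. Both, like Plk1 and Birc5, were called lower in Perk KO in control and were not called between genotypes under TM. Ccnd3 averaged 47.6 and 20.3 CPM in WT against 48.7 and 48.5 CPM in Perk KO, so its genotypes stood apart with TM only. Of the 12 and the 4, 10 and 2 kept their call with any 1 library left out, and 2 remained below 0 without WT control replicate 1, WT TM replicate 1 or Perk KO control replicate 2. Ccnd1 and Mcm7 each kept their call in 4 of 12 such fits. Mcm7 also lost its call under DESeq2 (-0.355, adjusted p = 0.0656), with DESeq2's size factors and with no filter (adjusted p = 0.148). The response of Cdkn1a did not pass the interaction test (0.065 ± 0.14, adjusted p = 0.749).
Under TM, 7 of 39 members were higher in Perk KO neurons than in WT neurons and 10 were lower (17.9% and 25.6%), where 20.7% and 19.4% of all genes were called, a share near the background. Ccnd3 (1.32 ± 0.18) and Ccnd1 (0.695 ± 0.155) were higher, and Mcm2 (-1.25 ± 0.17), Cdt1 (-1.30 ± 0.16), Cdc6 (-1.85 ± 0.36) and Bub1b (-1.17 ± 0.25) were lower. With the replicate number as a block Ccnb2 lost its call (1.05, adjusted p = 0.05603) and Ccnd2 gained one (0.34, adjusted p = 0.04818). Single libraries moved these counts to 3 to 8 higher and 6 to 13 lower, with 4 and 3 higher without WT TM replicates 1 and 2 and 6 lower without WT TM replicate 3.
Markers of several cell types fell with the mitotic genes in neuron cultures too. The neural progenitor sum, which is not a count of such cells, overlapped between control and TM. It ranged from 1823 to 2303 CPM in WT control and from 1797 to 1926 CPM with TM. In Perk KO neurons the progenitor sum was 1790 to 2663 CPM and then 2040 to 3406 CPM. The astrocyte marker sum averaged 4212 CPM in WT control and 1260 CPM with TM, against 5586 and 5330 CPM in Perk KO. In WT neurons 12 of 13 astrocyte markers and 10 of 11 oligodendrocyte lineage markers were lower with TM and the latter summed to 476 to 538 CPM in control and 124 to 170 CPM with TM. In Perk KO neurons that sum was 369 to 433 CPM in control and 298 to 362 CPM with TM. The 15 neuron markers fell in both genotypes, from 8607 to 9248 CPM to 4475 to 4727 CPM in WT (13 of 15 lower) and from 7333 to 8034 CPM to 4613 to 5095 CPM in Perk KO (12 of 15 lower). Of the 16 other p53 targets, 12 were higher and 1 lower with TM in WT neurons (median 0.831) and 11 higher and 0 lower in Perk KO neurons (median 0.621), beside the rise of Cdkn1a. Over all genes, 24.8% were called lower and 27.0% higher with TM in WT neurons, and 10.8% and 13.1% in Perk KO neurons.

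**Figure D5:**
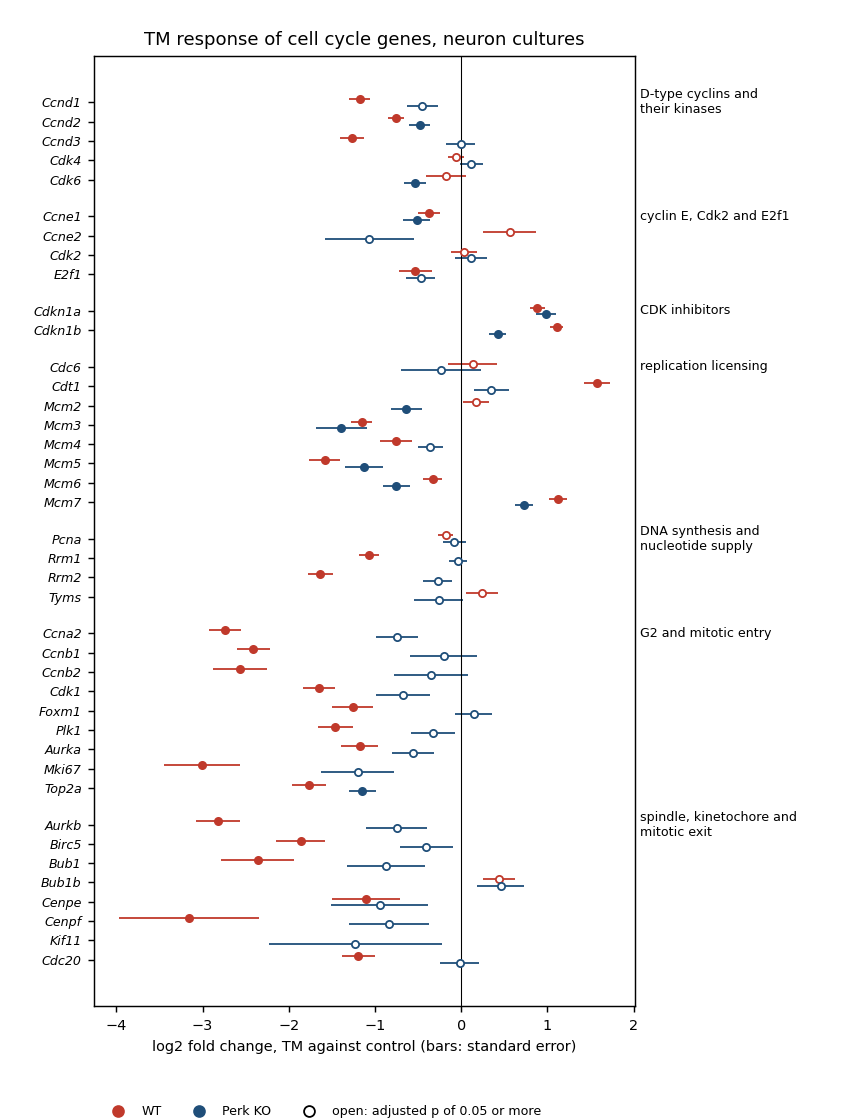
Log2 difference of TM against control for the genes in neuron cultures, by role, with WT in red and Perk KO in blue, bars of 1 standard error and open points for an adjusted p of 0.05 or more. Cdkn1a, Cdkn1b and Mcm7 lie right of 0 in both genotypes, and most mitotic genes lie left of 0 in WT, down to -3.15 for Cenpf, while Bub1b lies right of it at 0.44 with an open point.

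Cultures labelled astrocytes and cultures labelled neurons were set against each other through their TM responses, not their levels. Both held markers of several cell types, so the differences are between cultures and which cells carried them was not tested. In WT the astrocyte response minus the neuron response was above 0 for 9 and below 0 for 5 of 39 members (23.1% and 12.8%), where 12.5% and 12.4% of all genes were called. It was below 0 for both inhibitors, Cdkn1b (-0.85 ± 0.14, adjusted p = 0.00134) and Cdkn1a (-0.69 ± 0.20, adjusted p = 0.0241), and for Cdt1 (-0.94), Mcm7 (-0.51) and Bub1b (-1.43), which fell in astrocytes. It was above 0 for Pcna (0.75 ± 0.13, adjusted p = 0.00132), Cdk2 (0.70 ± 0.185) and Cdk4 (0.615 ± 0.165), which were called higher in WT astrocytes and not called in WT neurons, and for Mcm3, Bub1, Aurkb, Ccna2, Cdk1 and Cdc20, which fell further in neurons. The D-type cyclins fell in both WT cultures, and no difference between their responses was called. In Perk KO 3 members were above 0 and 2 below of 40 (7.5% and 5%), where 4.78% and 6.90% of all genes were called. These were Mcm3 (1.51 ± 0.32), Mcm5 (1.20 ± 0.25), Mcm2 (0.79 ± 0.22), Cdkn1a (-0.97 ± 0.20, adjusted p = 0.00999) and Mcm7 (-0.56 ± 0.15), of which Mcm3, Mcm5 and Cdkn1a kept their call with any 1 library left out. In WT, Cdk4, Cdk1, Pcna, Mcm3, Cdkn1b and Bub1b did. With no filter on low counts, 6 of the 9 above 0 in WT were not called: Cdk4 (adjusted p = 0.096), Cdk2 (adjusted p = 0.242), Ccna2, Aurkb, Bub1 and Cdc20. The counts moved to 5 above and 2 below in WT without WT TM neuron replicate 2, and to 6 and 8 above in Perk KO without Perk KO TM neuron replicates 1 and 2.

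The authors' deposited table of WT astrocytes, made with DESeq2, holds 23 members lower and 4 higher with TM at an adjusted p under 0.05. Their deposited table of Perk KO astrocytes holds 0 of either, and that of TM astrocytes by genotype 24 higher and 6 lower in Perk KO. For WT neurons with TM the authors' deposited table holds 26 lower and 4 higher, and for control neurons by genotype 18 lower and 1 higher.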

How the data were processed

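RNA was measured in 24 libraries: 8 groups of 3. Per the submitters' processing notes, the authors used fastp, HISAT2, featureCounts and DESeq2 with the mouse build GRCm38.p6, with versions not given in the sources used here. Their 8 deposited tables hold raw read counts per gene, log2 fold changes, p-values, adjusted p-values and other gene annotation fields, per the file headers. Counts of the same library did not differ between tables. A gene listed in 1 of the 2 tables of a library had at most 1 count.

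From the deposited counts, log2 fold changes were computed with edgeR 4.0.16 (R 4.3.3, TMM, glmQLFit and glmQLFTest) over genes averaging 10 or more counts in the libraries fitted. P-values were adjusted by Benjamini-Hochberg over all genes tested and called at 0.05. Interactions were fitted over 12 libraries. Depth was 16.03 M to 25.9 M counts per library, so 1 CPM stands for 16.03 to 25.9 counts before TMM scaling. Levels are CPM after TMM scaling within a cell type.

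The 40 members, their role groups, the other gene lists and the marker lists were chosen with earlier results of these data known. By the rule for named genes, values in every library are given in WT astrocytes for Ccnd1, Cdkn1a, Cdkn1b, Pcna, Mki67, E2f1 and the 3 members of each role group with the smallest unadjusted p for TM in WT astrocytes, and the top 2 of each other list are named. Values in every library of Mcm7, Cenpf and of genes in neurons were added after their values were seen. Genes most alike to Mki67 are not reported, since the astrocyte libraries fall into separate groups. Skp2 and Cldn5 were not analysed here.

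The replicate number pairs libraries only as far as the values show it. Deviations of same-numbered libraries from their group means correlated at 0.2176 to 0.5338 over the astrocyte comparisons and at 0.1275 to 0.3001 for genotype in TM neurons, above 0.1 for every pair, and were not all above 0.1 in the other neuron comparisons. As alternatives, results were recomputed with all genes kept (no filter), DESeq2 1.42.0 and its size factors, the replicate block, a GC correction (20 bins, GENCODE transcripts) with and without the block, the spread of all 12 libraries, and leaving out each library. Promoters and motifs came from RefSeq tables of GRCm38.p6.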

Additional observations from a re-analysis of the deposited data

Results flagged for a closer look

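A test of the difference between 2 responses was passed by the following members, each value being a difference of log2 fold changes from edgeR's quasi-likelihood test with Benjamini-Hochberg adjustment. No explanation was tested for any of them.

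Between the genotypes in astrocytes (TM response of Perk KO minus that of WT), the values were 1.480 for Ccnd3, 1.307 for Ccnd1, 0.663 for Ccnd2 and 0.543 for Cdk6 among the genes that open the cycle. They were 1.413 for Mcm5, 0.762 for Mcm6, 0.475 for Mcm3, 1.328 for Rrm2 and 0.608 for Rrm1 among the replication genes. They were 1.631 for Mki67, 1.563 for Ccnb2, 1.346 for Ccnb1, 1.344 for Ccna2, 1.518 for Aurkb and 1.107 for Birc5 among the mitotic genes. Cdk2 (-0.568) and Pcna (-0.591) differed the other way.

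Between the genotypes in neurons, the values were 1.229 for Ccnd3, 0.698 for Ccnd1, 1.326 for Rrm2, 0.999 for Rrm1, 1.374 for Foxm1, 1.961 for Ccna2, 2.191 for Ccnb2, 2.175 for Ccnb1, 1.099 for Plk1, 2.043 for Aurkb, 1.425 for Birc5 and 1.145 for Cdc20. Mcm2 (-0.841), Cdt1 (-1.262), Mcm7 (-0.427) and Cdkn1b (-0.716) differed the other way.

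Between astrocytes and neurons in WT (astrocyte response minus neuron response), the values were 0.615 for Cdk4, 0.703 for Cdk2, 0.753 for Pcna, 0.973 for Mcm3, 1.022 for Cdk1, 1.273 for Ccna2, 1.285 for Aurkb, 1.632 for Bub1 and 0.823 for Cdc20. Cdkn1a (-0.691), Cdkn1b (-0.847), Cdt1 (-0.941), Mcm7 (-0.508) and Bub1b (-1.427) differed the other way. In Perk KO the values were 0.787 for Mcm2, 1.198 for Mcm5 and 1.510 for Mcm3, with Cdkn1a (-0.969) and Mcm7 (-0.558) the other way.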

How the results depend on the processing

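The counts of members called with TM in WT astrocytes, with TM in either genotype of neurons and between genotypes under TM stayed within 1.5 times of the reported ones under no filter, DESeq2, its size factors, the block, the GC correction and the 12-library spread. With the replicate block, 5 members were lower with TM in Perk KO astrocytes (7 with GC correction and block), 4 higher in control Perk KO astrocytes (5), 4 below 0 in the astrocyte interaction (4, with 23 above), and 5 above in the Perk KO cell type interaction (6). There the GC correction alone gave 5, DESeq2 7 and no filter 6 above and 1 below. No filter gave 2 higher in control neurons, 1 below in the astrocyte interaction and 4 above in the WT cell type interaction. The 12-library spread gave 2 higher in control astrocytes and 0 in control neurons, where GC correction with block gave 2. Cdkn1b in control neurons, not called as reported (0.058), was called at -0.235 under GC correction with block.

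With 1 library left out, members called higher and lower numbered 3 to 4 and 18 to 25 (TM in WT astrocytes), 0 and 0 (Perk KO astrocytes), 0 to 1 and 0 to 2 (control astrocytes), 19 to 26 and 3 to 6 (TM astrocytes by genotype), 4 to 5 and 22 to 26 (TM in WT neurons), 2 to 3 and 3 to 11 (Perk KO neurons), 0 to 3 and 7 to 19 (control neurons), and 3 to 8 and 6 to 13 (TM neurons by genotype). They numbered 9 to 19 and 2 to 3 (astrocyte interaction), 10 to 14 and 2 to 6 (neuron interaction), 5 to 10 and 2 to 5 (cell type, WT), and 2 to 8 and 1 to 2 (cell type, Perk KO).

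Over all genes, leaving out 1 library gave 3 to 1767 higher and 47 to 2371 lower in control astrocytes, and 136 to 3179 higher and 121 to 2235 lower in control neurons (1927 and 1443 with all, lowest without Perk KO control replicate 3). The block moved control astrocytes from 716 higher and 1544 lower to 2753 and 2977 (DESeq2 gave 1133 higher), control neurons from 1443 to 2192 lower and the astrocyte interaction from 2211 to 3460 below. No filter moved the WT cell type count above 0 from 1970 to 1190, and in Perk KO DESeq2 moved it from 767 to 1359. No filter moved the median of all genes to 0.135 between genotypes in TM neurons and to -0.119 for cell type in WT. GC correction with block gave 2216 higher and 2152 lower with TM in Perk KO astrocytes, 2775 and 2944 in control astrocytes, 3397 below in the astrocyte interaction, 2987 and 2957 for cell type in WT and 1397 and 1715 in Perk KO (1176 above with the block alone). Where replicate numbers pair libraries, the block changed no member's call beyond those given above. Where they do not, it gave 23 members lower with TM in WT neurons, 7 in Perk KO neurons and 23 in control neurons. The causes were not tested. Genes near 1 CPM, such as Kif11 and Cenpf, are limited by their counts.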
